A study of Mus musculus with 4 samples.

Results

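The regions described are the 84 PRDM6 peaks that the deposited annotation assigned to Gm20125, Marcks or Tbl1xr1, of 13977 peaks in all (0.601%). They were chosen by the gene symbol of the annotation, and the 3 genes were selected on the number and reach of their peaks, so these 2 properties are given as a description with no test. Gm20125 had 31 peaks, Marcks 28 and Tbl1xr1 25. The peaks come from 2 chromatin immunoprecipitations (PRDM6 ChIP 1 and 2) and 2 input libraries (Input 1 and 2) of cultured outflow tract smooth muscle cells, isolated from mouse embryos late in gestation. Both groups carried the same lentivirus, which overexpressed FLAG-tagged PRDM6, so the peaks are those of a tagged, virus-driven protein captured with an anti-FLAG antibody and not of the cells' own PRDM6. Every peak in the list was called in both immunoprecipitations against its own input. The study calls the immunoprecipitations independent replicates in one place and drawn from 1 sample in another, so the spread between them may be technical. The input entered only through the peak calls, and the read depth behind the values is unknown.

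PRDM6 belongs to the PR domain family of zinc finger proteins and is known as a regulator of smooth muscle cell identity. A peak in such an experiment marks DNA that was cross-linked to the protein directly or through partners. Many regulatory elements lie far from the gene they act on. A peak list assigns each peak to the nearest transcription start site (TSS) among the genes it considers. This says nothing of the gene the peak acts on. Marcks encodes a substrate of protein kinase C that binds calmodulin, actin and the inner face of the plasma membrane. Tbl1xr1 encodes a WD-repeat subunit of the NCoR corepressor complex, which brings histone deacetylase 3 to DNA. Gm20125 is an annotated long noncoding RNA gene, and a gene name of this kind carries no known role.

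The sequences below are those around the strongest peak of each gene, around the peaks with the best match between replicates, and around the strongest peak of each gene that held an AP-1 or TEAD word. AP-1 (Fos and Jun proteins) and TEAD factors bind short DNA words often found in enhancers. Both were searched because the study's own motif search detected them. The study also pointed to a TTTC/AT sequence, reported earlier as a potential PRDM6 site, which was not searched here. The AP-1 word was TGACTCA and the TEAD words were AGGAATGC, AGGAATGT, GGGAATGC and GGGAATGT, each on both strands. Only these exact words were searched, and TEAD forms with T as the first base were not among them. A window said to hold neither word may still hold another form of either site. Each sequence runs 100 bp to either side of the summit, 5′ to 3′ on the plus strand of mm10, with any AP-1 or TEAD word in capitals.
Gm20125, strongest peak, chr10:16553371-16553571: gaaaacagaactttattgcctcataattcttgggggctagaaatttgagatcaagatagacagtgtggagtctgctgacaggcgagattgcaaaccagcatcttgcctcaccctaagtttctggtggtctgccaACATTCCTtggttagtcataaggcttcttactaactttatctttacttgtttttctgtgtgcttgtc
Gm20125, exon peak, chr10:16990470-16990670: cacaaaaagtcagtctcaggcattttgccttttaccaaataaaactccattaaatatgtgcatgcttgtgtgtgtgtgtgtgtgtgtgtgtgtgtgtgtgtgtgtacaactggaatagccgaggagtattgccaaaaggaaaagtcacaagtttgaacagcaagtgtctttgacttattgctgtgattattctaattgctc
Marcks, strongest peak, chr10:37603053-37603253: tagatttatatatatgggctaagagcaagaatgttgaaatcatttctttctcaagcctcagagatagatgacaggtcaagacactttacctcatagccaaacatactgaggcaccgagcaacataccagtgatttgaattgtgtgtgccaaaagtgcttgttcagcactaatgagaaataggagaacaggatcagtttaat
Marcks, strongest peak with a TEAD word, chr10:37232892-37233092: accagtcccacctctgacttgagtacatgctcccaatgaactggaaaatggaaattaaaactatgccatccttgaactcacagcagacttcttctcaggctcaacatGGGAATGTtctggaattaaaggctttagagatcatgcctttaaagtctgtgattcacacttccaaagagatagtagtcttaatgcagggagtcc
Tbl1xr1, strongest peak, chr3:21935982-21936182: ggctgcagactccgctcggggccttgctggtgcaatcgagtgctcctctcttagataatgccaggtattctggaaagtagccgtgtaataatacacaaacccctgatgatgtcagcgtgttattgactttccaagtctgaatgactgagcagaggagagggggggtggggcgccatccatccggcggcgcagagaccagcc
Tbl1xr1, second strongest peak, chr3:21479028-21479228: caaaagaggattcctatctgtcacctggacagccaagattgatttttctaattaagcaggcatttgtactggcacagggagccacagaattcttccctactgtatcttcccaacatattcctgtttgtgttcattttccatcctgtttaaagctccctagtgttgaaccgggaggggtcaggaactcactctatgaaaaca
Tbl1xr1, strongest peak with an AP-1 word, chr3:21569777-21569977: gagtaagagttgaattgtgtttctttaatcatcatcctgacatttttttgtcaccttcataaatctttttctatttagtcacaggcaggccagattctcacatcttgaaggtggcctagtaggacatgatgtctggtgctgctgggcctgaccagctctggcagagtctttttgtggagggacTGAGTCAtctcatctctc

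Among these 7 windows the strongest Gm20125 peak held a TEAD word that began 34 bases after the summit. The Marcks window held 1 TEAD word, which began 7 bases after the summit, and the last Tbl1xr1 window held 1 AP-1 word, which began 83 bases after it. The strongest Marcks peak and both leading Tbl1xr1 peaks held neither. The strongest Tbl1xr1 window was richer in G and C (55.7%) than the other 6, which lay between 38.3% and 43.8%.

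To see how the 3 genes rank, assigned peaks were counted for all 5243 genes of the list. Gm20125 ranked first with 31 peaks, Marcks second with 28, then Mbnl1 with 27 and Tbl1xr1 with 25. Efna5 and Efnb2 followed with 24 each, and 13 genes had 20 or more. The order of the 3 genes turned when peaks within 1 kb were counted as 1, to 23 at Tbl1xr1, 20 at Marcks and 19 at Gm20125. The peaks of Marcks spread over 537 kb, those of Tbl1xr1 over 820.1 kb and those of Gm20125 over 867.4 kb. Efna5 and Efnb2 had fewer peaks over longer spans (1680.6 and 1754.3 kb), and Gm12610 had 23 peaks within 180.4 kb. The first and last peak of a gene set its span, so the counts per span follow in part from the choice of genes.

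**Figure D1:**
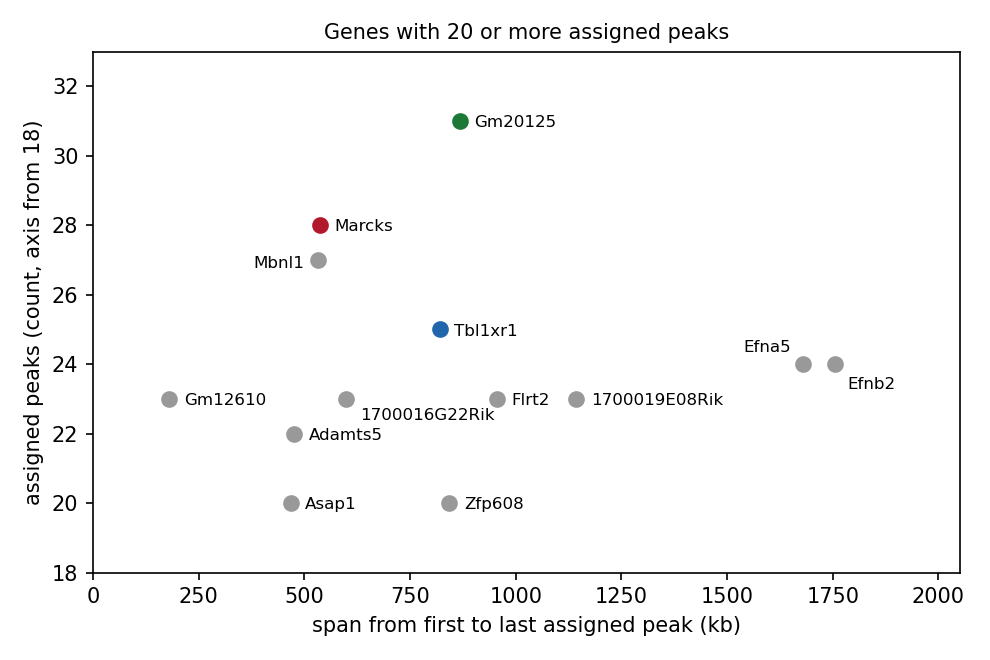
Number of peaks assigned to each of the 13 genes with 20 or more (vertical axis, a count that starts at 18) against the distance from the first to the last of them in kb (horizontal axis). The 3 genes described are coloured, and Gm20125 stands highest, with 31 peaks over 867.4 kb, though lowest of the 3, at 19, where peaks within 1 kb count as 1.

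The spans held no peak of another gene, which follows largely from the nearest-TSS assignment and from spans drawn between a gene's own peaks. All 28 peaks between chr10:37078350-37615397 were assigned to Marcks, all 31 between chr10:16498381-17365780 to Gm20125, and all 25 between chr3:21343233-22163340 to Tbl1xr1. The density was 52.1 peaks per Mb over the Marcks span and 35.7 over the Gm20125 span, against 7.52 over chromosome 10 as a whole. It was 30.5 per Mb over the Tbl1xr1 span, against 6.43 over chromosome 3. When the genome was cut into windows as long as each span, 2 of 4891 windows held 28 or more summits, 5 of 3025 held 31 or more, and 21 of 3200 held 25 or more. Windows that start at fixed places can split a locus, and the spans were drawn to the peaks' edges, so these counts are a description. Peaks covered 25.8 kb of the Marcks span (4.81%), 27.4 kb of the Gm20125 span (3.16%) and 20.5 kb of the Tbl1xr1 span (2.497%).

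The surroundings of the spans differed. Next to the Marcks span, the nearest peak on the low-coordinate side was 30.3 kb away and belonged to Hdac2, the gene of histone deacetylase 2, which had 3 peaks. On the other side the next peak was 67.7 kb away and belonged to 4930591E09Rik, beside a median gap of 41.5 kb over all neighbouring peaks. The Gm20125 span began 146.6 kb after the nearest peak of C330004P14Rik and ended 45.5 kb before the first of 7 peaks of Cited2, the gene of a CBP/p300-binding transcriptional regulator. The Tbl1xr1 peaks stood alone. The nearest peak of any other gene was 1385.1 kb before them, at Cp, and 2719.2 kb after them, at Naaladl2.

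Protein-coding genes were few in these stretches. Marcks and Tbl1xr1 were each the only protein-coding gene of GENCODE with a TSS inside their spans, and the Gm20125 span held none. Of the 6, 9 and 8 annotated genes with a TSS inside the Marcks, Tbl1xr1 and Gm20125 spans, only the named gene of each span had any assigned peak. This too follows in large part from the assignment, which gave the other genes no peak even where their TSS lay nearer. The others were long noncoding RNAs, pseudogenes, a small nuclear RNA and a transcript to be checked experimentally. The Marcks span held Gm38231, 5930403N24Rik, 4930543K20Rik, Gm26535 and Gm48172. The Gm20125 span held Gm47729, Gm5948, Gm18039, Gm47736, Gm25382, Gm47760 and Gm47761. The Tbl1xr1 span held Gm43675, Gm17935, Gm31693, 7530428D23Rik, Gm43674, Gm43671, Gm43672 and Gm5842. The closest protein-coding TSSs outside were those of Hdac2 (80.2 kb before) and Rfpl4b (1206.4 kb after) for Marcks, Nmbr (1738.2 kb before) and Cited2 (357.4 kb after) for Gm20125, and Agtr1b (976.1 kb before) and Naaladl2 (1776.1 kb after) for Tbl1xr1.

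Which gene a peak is given to depended on the genes allowed. By the nearest protein-coding TSS, all 28 Marcks peaks and all 25 Tbl1xr1 peaks kept their gene, and all 31 Gm20125 peaks went to Cited2, at a median of 708.6 kb. By the nearest TSS of any annotated gene, 12 of 31 peaks kept Gm20125, 2 of 25 kept Tbl1xr1 and 1 of 28 kept Marcks. Most of the Marcks peaks then went to the pseudogene Gm48172 (16 peaks) or the noncoding RNA Gm26535 (7 peaks). Over all peaks 54.9% kept their gene under this second rule and 79.9% under the first. The deposited assignment thus passed over nearer TSSs of noncoding genes and pseudogenes at these loci. Its distances were counted from the assigned gene even where another annotated TSS lay nearer.

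**Figure D2:**
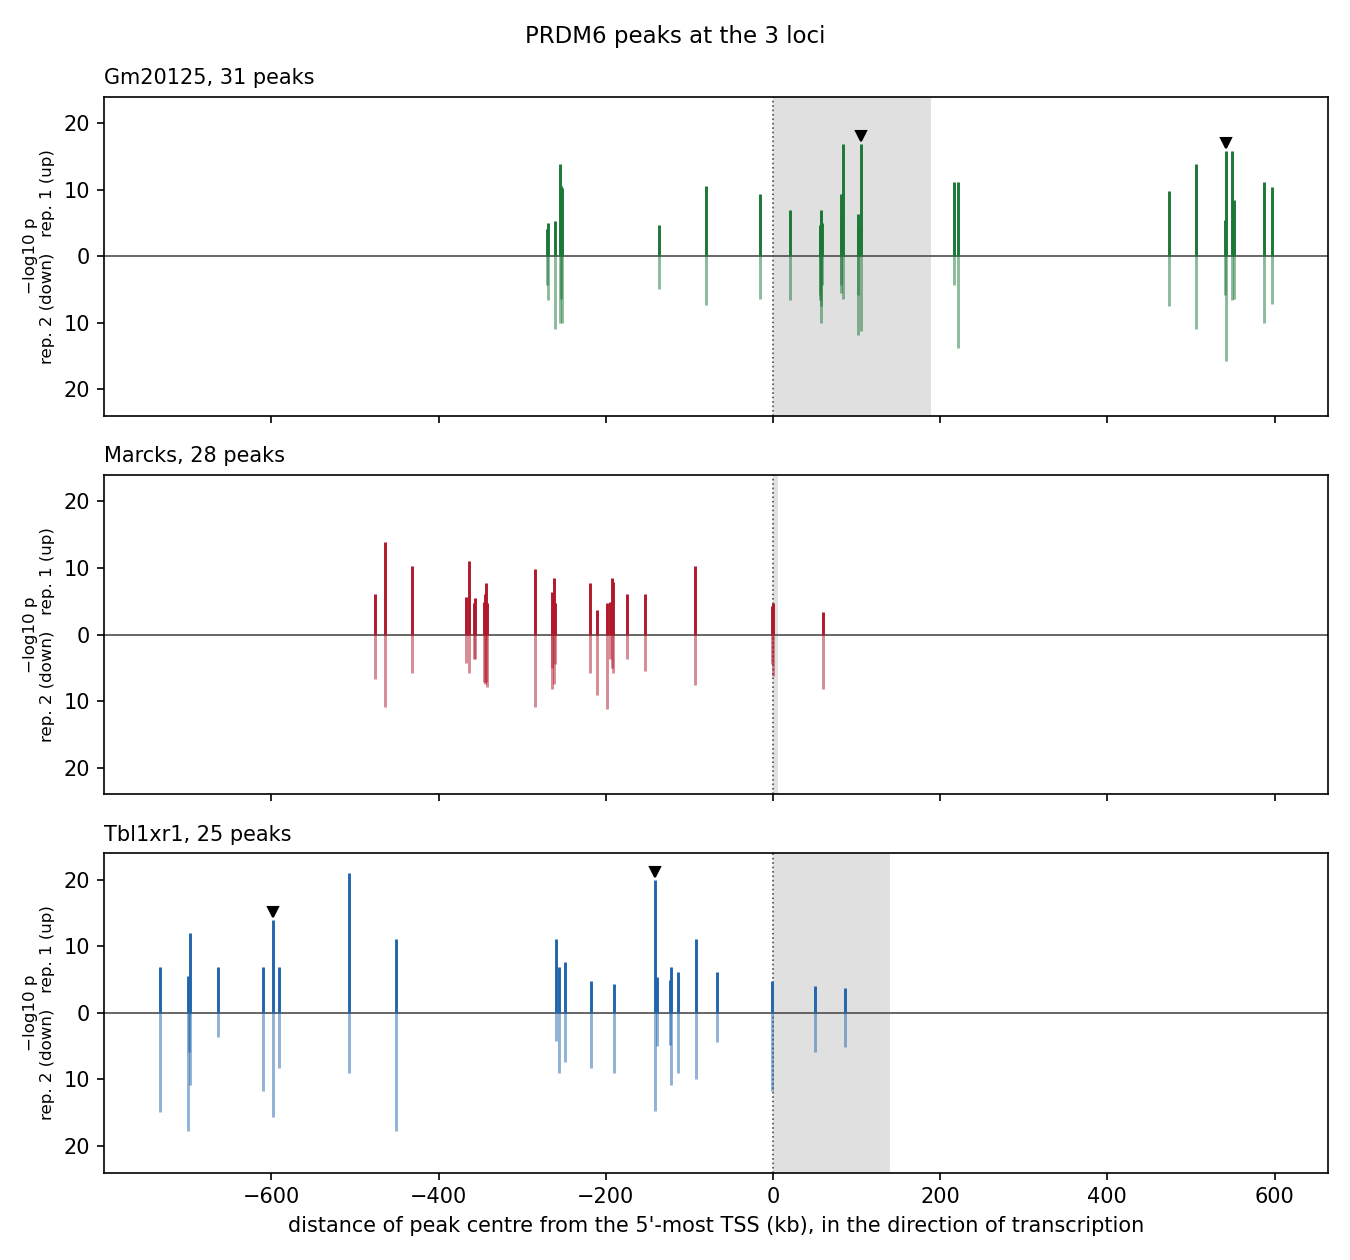
Each line is 1 peak at the distance of its centre from the 5′-most TSS of the gene in kb, counted along the direction of transcription. Lines up give the −log10 p of the first-listed replicate and lines down that of the second-listed replicate, the grey band is the gene, and triangles mark the 4 peaks whose global IDR was no higher than 0.05, of which Marcks had none.

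The side of the gene on which the peaks lay differed between the genes, as the map of the 3 loci shows. At Marcks 26 of 28 peaks lay upstream of the TSS, 1 lay on the gene and overlapped the TSS, and 1 lay past the 3′ end. At Tbl1xr1 23 of 25 lay upstream of the 5′-most TSS and 2 inside the gene. The Gm20125 peaks were spread around it, with 9 upstream, 12 inside and 10 past the 3′ end. By the deposited distance, which takes the nearest of several TSSs, 26 Marcks, 24 Tbl1xr1 and 17 Gm20125 peaks (54.8%) were listed upstream, beside 44.0% of all 13977 peaks.

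The deposited distance from the TSS had a median of 262.3 kb at Marcks (quartiles 191.9 and 348.3 kb) and 248.5 kb at Tbl1xr1 (121.0 and 597.0 kb). It was 88.2 kb at Gm20125 (7.73 and 305.2 kb), against 22.7 kb over all peaks. The genes were chosen for this reach. More than 100 kb from the TSS lay 24 of 28 Marcks peaks, 20 of 25 Tbl1xr1 peaks and 15 of 31 Gm20125 peaks, beside 19.3% of all peaks. The farthest was a Tbl1xr1 peak at chr3:21343233-21343828, 732.8 kb upstream, with a −log10 p of 6.92 in the first-listed and 14.9 in the second-listed replicate. The farthest of Marcks was 474.8 kb upstream (6.14 and 6.61), and the farthest of Gm20125 was 463.6 kb downstream (10.4 and 7.14). Gm20125 has several annotated TSSs, and the deposited distances were counted from 5 of them. From the 5′-most TSS its peaks ran from 269.8 kb upstream to 596.8 kb downstream.

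The gene region of each peak was read from the deposited annotation. Distal intergenic was the label of 23 of 28 Marcks peaks (82.1%), 22 of 25 Tbl1xr1 peaks (88.0%) and 17 of 31 Gm20125 peaks (54.8%), beside 37.2% of all peaks. Promoter, here within 3 kb of a TSS, was the label of 2 Marcks peaks, 1 Tbl1xr1 peak and 4 Gm20125 peaks. Introns held 2, 2 and 8 and exons 1, 0 and 2, in the same order. Over all peaks 21.3% were labelled promoter, 35.9% intron and 4.10% exon. Since the genes were chosen for the reach of their peaks, these labels follow in part from that choice.

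To describe how the peaks were strung out, the steps between neighbouring peak centres were measured. The median step was 6449.75 bp at Gm20125 (30 steps), 9245 bp at Marcks (27 steps) and 26314.2 bp at Tbl1xr1 (24 steps). Among the peaks above each gene's median matched value, a setting chosen after seeing the data, it was 36287.2, 27021.5 and 36367 bp, so this order did not hold for the stronger peaks. Over the whole list, neighbouring peaks of a chromosome were a median of 42255.5 bp apart. Steps of the whole list also cross from gene to gene, and the 3 genes were chosen for many peaks. Their shorter steps thus follow in part from the choice. Gaps between edges of at most 1 kb made up 12 of 30 at Gm20125 and 8 of 27 at Marcks (40% and 29.6%). At Tbl1xr1 they made up 2 of 24 (8.33%), and over all neighbouring peaks 14.2%. The gaps at each locus are few and no interval was computed, so these shares are not used to rank the 3 genes. The shortest gap was 30 bp, at Tbl1xr1, and the longest in each locus was 250.8 kb at Gm20125, 190.2 kb at Tbl1xr1 and 91.0 kb at Marcks.

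**Figure D3:**
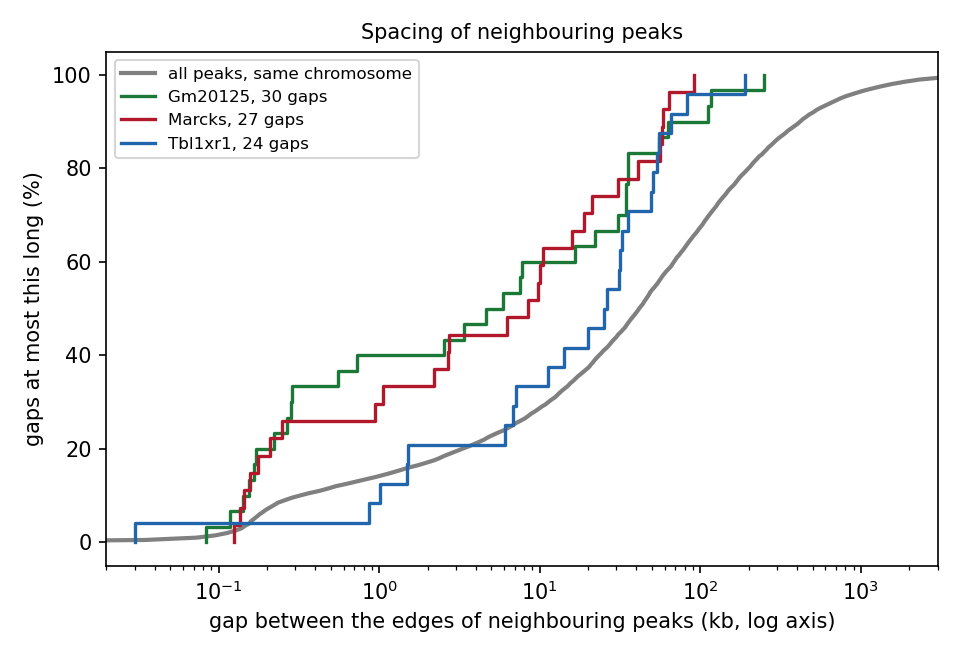
Share of gaps between the edges of neighbouring peaks (vertical axis, %) that are at most as long as the value on the horizontal axis (kb, log axis), for each gene and for all neighbouring peaks of a chromosome. At 10 kb the lines stand at 60.0% for Gm20125, 55.6% for Marcks, 33.3% for Tbl1xr1 and 28.7% for all peaks.

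Peaks closer than 10 kb were then joined into runs. Marcks had 13 runs, of which 6 were single peaks, and 22 of its 28 peaks stood in a run of 2 or more. Gm20125 also had 13 runs with 6 single peaks, and 25 of 31 peaks stood in longer runs. Tbl1xr1 had 17 runs, 12 of them single peaks, and 13 of 25 peaks stood in longer runs. The longest run was 6 peaks over 17.9 kb at Gm20125, at chr10:17347908-17365780. A second Gm20125 run packed 5 peaks into 2.8 kb, at chr10:17036928-17039710, in which peaks covered 70.8% of the bases. Marcks had 4 runs of 4 peaks. The one most fully covered, at chr10:37480030-37484795, held peaks over 72.8% of its length.

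Peaks at these loci were also compared in width. The median width was 874 bp at Gm20125, 776 bp at Tbl1xr1 and 727 bp at Marcks, beside 600 bp over all peaks and 602 bp over the 1858 intergenic peaks more than 100 kb from a TSS. Wider than 1000 bp were 11 of 31, 8 of 25 and 11 of 28 peaks, in the same order, and 21.5% of all peaks. The widest was the Marcks TSS peak of 2711 bp.

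The strength of a peak was read from the −log10 p of its MACS2 call in each replicate, and the list takes the smaller of both as the matched value. The median matched −log10 p was 6.39 at Gm20125, 6.15 at Tbl1xr1 and 4.98 at Marcks, beside 5.53 over all peaks and 5.67 over the far intergenic peaks. In the first-listed replicate the medians were 9.37, 6.92 and 6.15, and in the second-listed 6.61, 9.10 and 6.01. The order of Gm20125 and Tbl1xr1 thus turned with the replicate, and Marcks was lowest in both. Over all peaks the medians were 6.92 and 6.61. The first-listed replicate was the higher at 20 of 31 Gm20125 peaks, 16 of 28 Marcks peaks and 10 of 25 Tbl1xr1 peaks, beside 52.1% of all peaks. The files do not name which immunoprecipitation is listed first.

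The replicates matched loosely at single peaks. The rank correlation of their −log10 p values across peaks was 0.40 at Gm20125 (31 peaks), 0.38 at Tbl1xr1 (25 peaks) and 0.16 at Marcks (28 peaks), and 0.26 over all 13977. These peaks share the same libraries, and all had to pass the same limit in both, which narrows the range. The median difference between the replicates of a peak, without its sign, was 2.41, 2.88 and 1.77 in the same order and 1.999 over all peaks. The summits of both replicates lay a median of 104 bp apart at Gm20125, 133 bp at Tbl1xr1 and 211.5 bp at Marcks, against 121 bp over all peaks.

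**Figure D4:**
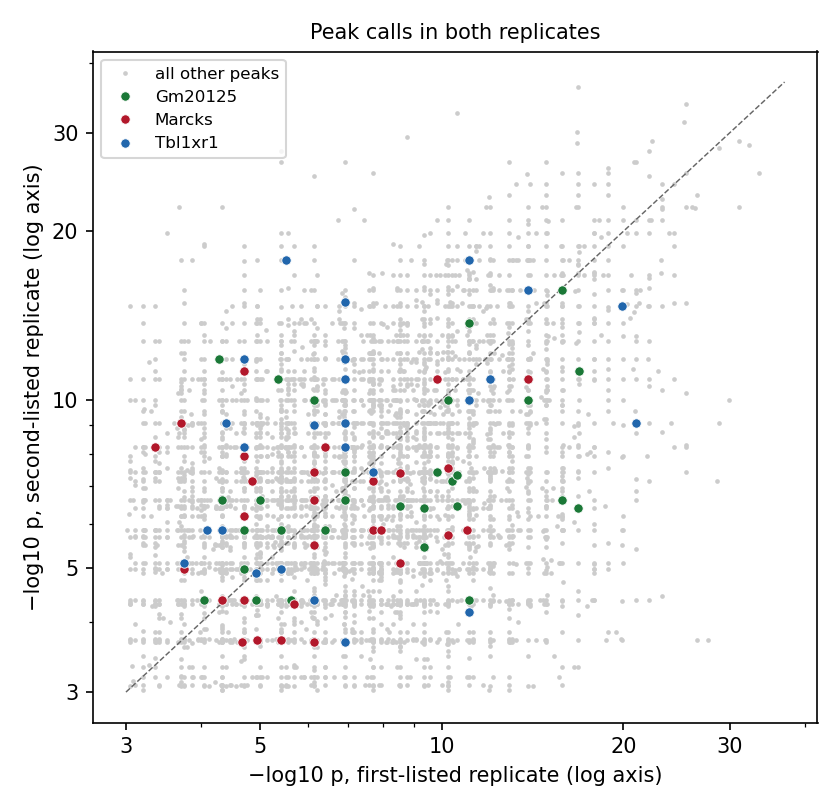
The −log10 p of every peak in the first-listed (horizontal, log axis) and second-listed replicate (vertical, log axis), with the peaks of the 3 genes coloured and the line of equal values dashed. Values repeat in rows and columns because the p-values step with whole fragments, and the coloured points lie within the cloud of all peaks.

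The irreproducible discovery rate (IDR) of a peak is the estimated share of irreproducible peaks among those ranked as high in both replicates, and the list was deposited with no limit on it. A global IDR no higher than 0.05 was held by 3.33% of all peaks. It was held by 2 of 31 Gm20125 peaks, 2 of 25 Tbl1xr1 peaks and 0 of 28 Marcks peaks. The 95% Wilson interval around 4 in 84 (4.76%, 1.87% to 11.6%) holds the share over all peaks. The lowest score of the list, 48, stands for a global IDR of 0.759 and was held by 41.4% of all peaks. That score was held by 15 of 28 Marcks peaks, 9 of 31 Gm20125 peaks and 8 of 25 Tbl1xr1 peaks. The interval around the Marcks share (53.6%, 35.8% to 70.5%) holds the share of the whole list.

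Most −log10 p values fell on 1 series of Poisson tails per replicate, with a mean of 2.61 fragments in the first-listed and 2.39 in the second-listed. For a peak on this series the value stands for the height of the peak over a constant background, so that the height can be read back, within 1 fragment. The series held 19 of 31 Gm20125, 15 of 28 Marcks and 18 of 25 Tbl1xr1 peaks in the first-listed replicate, beside 58.3% of all peaks. In the second-listed replicate it held 22, 15 and 19, beside 63.5%. The median height of such peaks was 17 and 13.5 fragments at Gm20125, 13 and 12 at Marcks and 14 and 16 at Tbl1xr1, in the first-listed and second-listed replicate, beside 14 and 13 over all peaks. At Tbl1xr1 6 peaks shared the first-listed value 6.92, a height of 14 fragments. On this series 1 more fragment, from 13 to 14, raised the first-listed value from 6.15 to 6.92.

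At Gm20125 the strongest peak lay past the 3′ end of the gene, at chr10:16552952-16554177, 409.0 kb downstream of the TSS used. Its −log10 p was 15.8 in the first-listed and 15.7 in the second-listed replicate, heights of 24 and 23 fragments, and its summits lay 23 bp apart. It had a score of 799 and a global IDR of 0.0117, and 105 peaks of the list had a higher matched value. This is the peak whose TEAD word is shown above. Its neighbour in the same run, at chr10:16545347-16547058, reached 15.8 in the first-listed replicate and 6.61 in the second-listed, so only 1 replicate placed it level with the strongest.

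The other Gm20125 peak with a global IDR under 0.05 (0.0363) lay at chr10:16989955-16991220 and overlapped exon 2 of 13 of a Gm20125 transcript. Its values were 16.9 and 11.3, and neither fell on the Poisson series. Repeat-masked bases made up 35.8% of its summit window, where the sequence shows a run of alternating t and g. Next by matched value were chr10:16873379-16874948 (11.1 and 13.7), chr10:16589039-16589980 (13.9 and 10.9), and 3 peaks tied at 9.98. The ties were chr10:16507276-16508942, chr10:17347908-17348534 and chr10:17350116-17351068, whose first-listed values were 11.1, 10.2 and 13.9. The peak at chr10:16589039-16589980 lay in intron 1 of Gm47729, a long noncoding RNA gene, and held 2 AP-1 words within 100 bp of its summit. A second peak, at chr10:16620849-16622590 (9.82 and 7.42), lay in intron 2 of the same gene and also held an AP-1 word.

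Values within the Gm20125 locus were also read by position. The 10 peaks past the 3′ end had a median matched −log10 p of 7.28 and a median width of 1209.5 bp. The 12 inside the gene had 5.65 and 526.5 bp, the 7 that lay more than 100 kb upstream had 5.36 and 741 bp, and the 2 that lay nearer upstream had 6.86 and 1106 bp. The first-listed medians of the first 3 of these groups lay further apart (11.1, 6.28 and 5.36) than the second-listed (7.28, 6.50 and 6.61). By matched value the 4 promoter peaks inside the gene lay below the exon peak in exon 2. They lay 1334, 2254, 2409 and 2917 bp from a Gm20125 TSS, and their matched values were 4.28, 4.39, 5.84 and 6.15. The nearest of them, at chr10:16994078-16994985, had 4.28 in the first-listed and 11.8 in the second-listed replicate. No Gm20125 peak overlapped a TSS. The second exon peak, at chr10:17075055-17075928 in exon 3 of 13, was close to equal in both replicates (6.92 and 6.61).

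At Marcks the strongest peak was the second most distant, at chr10:37602611-37603974, 463.7 kb upstream. Its −log10 p was 13.9 in the first-listed and 10.9 in the second-listed replicate, heights of 22 and 18 fragments. Its summits lay 440 bp apart and its global IDR was 0.0676, just above the limit of 0.05. The next by matched value was chr10:37422370-37423722, 283.4 kb upstream, with 9.82 and 10.9 and summits 28 bp apart. Next came chr10:37231868-37233515, 92.9 kb upstream, with 10.2 and 7.56, whose TEAD word is shown above. The last of the 5 highest were chr10:37399914-37401404 (8.52 and 7.39) and chr10:37482361-37482880 (7.71 and 7.14).

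The Marcks promoter peaks had matched values under the locus median of 4.98. The peak over the TSS, at chr10:37136906-37139616, had 4.71 in the first-listed and 6.19 in the second-listed replicate, and its summits lay 838 bp apart. The second, at chr10:37139794-37140846, lay 874 bp upstream and had 4.33 and 4.39. Both held the lowest score of the list, as did 13 other Marcks peaks. The second-listed value of the TSS peak was above the second-listed median of the locus (6.01). The 24 peaks more than 100 kb upstream had a median matched value of 5.30. Both promoter peaks overlapped a TSS of 5930403N24Rik, a noncoding RNA gene that is transcribed away from Marcks on the opposite strand, so their assignment to Marcks is not the only one possible. The peak past the 3′ end, at chr10:37078350-37079033, had the lowest matched value of the 84 (3.35) although its second-listed value was 8.25.

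A run of 4 Marcks peaks ended at the TSS of Gm26535, a noncoding RNA gene on the plus strand. Its peak at chr10:37336765-37338541, labelled exon 1 of 3 of Gm26535, overlapped that TSS and lay 197.8 kb from the TSS of Marcks. It had 4.71 in the first-listed and 11.3 in the second-listed replicate, and an AP-1 word within 100 bp of its summit. In RefSeq that gene covers all 4 peaks of the run, at chr10:37319505-37338948. The next 2 peaks of the locus, at chr10:37348581-37349362 (3.70 and 9.10) and chr10:37357857-37358576 (7.71 and 5.84), lay in intron 2 of Gm26535 in GENCODE (chr10:37337486-37379652) and outside the RefSeq gene. At the first peak and its nearest intronic neighbour the second-listed replicate was the higher, and at the other intronic peak the first-listed.

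At Tbl1xr1 the strongest peak was chr3:21935571-21936550, 140.1 kb upstream, with 19.9 in the first-listed and 14.7 in the second-listed replicate. It had a score of 850 and a global IDR of 0.00891, the lowest of the 84 peaks. The second was chr3:21478385-21479659, 597.0 kb upstream, with 13.9 and 15.7, heights of 22 and 23 fragments, and a global IDR of 0.0214. Its summits lay 514 bp apart, and those of the strongest peak 213 bp apart. Next came chr3:21625706-21626857, 449.8 kb upstream, with 11.1 and 17.8, summits 1 bp apart and a global IDR of 0.0562. The last of the 5 highest were chr3:21379116-21380679 (12.03 and 10.9) and chr3:21984086-21984994 (11.1 and 9.98).

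The highest first-listed value at the 3 loci was that of chr3:21569259-21570479, at 21 or a height of 29 fragments, and its second-listed value was 9.10, or 16 fragments. This is the Tbl1xr1 peak whose AP-1 word is shown above. The reverse was seen at chr3:21376586-21377292, with 5.53 in the first-listed and 17.8 in the second-listed replicate. In RefSeq, 3 Tbl1xr1 peaks lay in the noncoding RNA gene Gm31610 (chr3:21421784-21489656) and 6 in Gm31813 (chr3:21863062-21964346), among them both peaks with a global IDR under 0.05.

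Close to the gene the Tbl1xr1 peaks were weak in the first-listed replicate. The promoter peak, at chr3:22075717-22076492, lay 160 bp upstream of the TSS of the deposited annotation, and it had 4.71 in the first-listed and 11.8 in the second-listed replicate, heights of 11 and 19 fragments. The RefSeq gene starts further upstream, at chr3:22076253-22216594, and the peak covers that start. It also overlapped the TSS of Gm43672, a noncoding RNA gene on the minus strand. The 2 intronic peaks, in intron 2 and intron 3 of 16, had 4.08 and 5.84, and 3.75 and 5.10. The 20 peaks more than 100 kb upstream had a median matched value of 6.92, and all 3 peaks at the promoter or inside the gene lay below it.

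The promoter peak reached 91 bp into the RefSeq promoter of Tbl1xr1, which runs from 250 bases before to 50 bases after a start site. That window holds the TSS of the deposited annotation (chr3:22076652). The RefSeq gene start named above and the summit of the peak (chr3:22076130) lie outside it. The window is shown because a peak edge falls inside it. It comes from GRCm38.p6, chr3:22076402-22076701, plus strand, with the single GC box (GGGCGG, here on the opposite strand) in capitals.
Tbl1xr1 promoter: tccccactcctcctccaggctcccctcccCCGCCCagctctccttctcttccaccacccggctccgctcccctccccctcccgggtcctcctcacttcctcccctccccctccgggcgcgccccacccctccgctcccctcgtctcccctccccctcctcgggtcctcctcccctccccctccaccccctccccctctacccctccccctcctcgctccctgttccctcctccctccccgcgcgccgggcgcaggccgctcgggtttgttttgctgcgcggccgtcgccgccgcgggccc
It was 76.3% G and C and held 25 CG dinucleotides. No CCAAT word (CCAAT), TATA word (TATAAA), AP-1 or TEAD word was in this window. Over the 32851 promoters of the table, a GC box was in 35.7%, a CCAAT word in 37.4%, a TATA word in 13.6%, an AP-1 word in 5.20% and a TEAD word in 4.23%, each on both strands.

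To compare the sequence under the peaks, 100 bp to either side of each summit were searched. An AP-1 word was found at 4 of 28 Marcks peaks (14.3%, 95% Wilson interval 5.70% to 31.5%), 3 of 31 Gm20125 peaks (9.68%, 3.35% to 24.9%) and 3 of 25 Tbl1xr1 peaks (12%, 4.17% to 29.96%). Over all peaks the share was 14.3%, and each interval holds it. A TEAD word was found at 1 Marcks peak, 1 Gm20125 peak and 3 Tbl1xr1 peaks (12%, 4.17% to 29.96%), beside 7.45% of all peaks. The order against all peaks depended on the window: over whole peaks the TEAD shares at Gm20125 (25.8%), Marcks (21.4%) and Tbl1xr1 (36%) were all above the 19.2% of the list, and within 50 bp of the summit the Tbl1xr1 share was 4%, beside 4.09%. Peaks at the 3 loci were wider at the median than those of the list, so a whole-peak search covers more sequence there. The Tbl1xr1 peak at chr3:22010168-22010341, 66.3 kb upstream and 174 bp wide, held both. Its values were modest (6.15 and 4.39). The strongest Gm20125 peak was the only one of the 3 strongest that held either word. The median G and C content of the summit windows was 40.8% at Gm20125, 41.0% at Marcks and 43.3% at Tbl1xr1, beside 43.8% over all peaks and 41.3% over the far intergenic peaks. Repeat-masked bases made up a median of 14.9%, 11.7% and 9.95% of the windows, beside 11.9% over all peaks.

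To place Tbl1xr1 and Marcks among their partners, peaks were counted for the NCoR complex and for the MARCKS family with its kinases and calmodulin. Both lists are given in part, so their genes with and without a peak are not counted. Tbl1x, the X-linked paralogue of Tbl1xr1, had 2 peaks, of which the nearest, 17 bp upstream of its TSS, had 5.42 and 4.39. The scaffold Ncor1, the deacetylase Hdac3 and the subunit Gps2 had none. Basp1, which encodes another membrane-bound, calmodulin-binding protein of this kind, had 13 peaks with a highest matched value of 7.71. The growth cone protein gene Gap43 had 2, the kinase genes Prkca, Prkcb and Prkce had 1, 1 and 2, and Calm2 had 1. Marcksl1, the closest relative of Marcks, had none, nor had Prkcd, Prkcz and Calm3. After Marcks and Tbl1xr1, the most peaks among the genes named here were the 13 of Basp1. The length of the genes and the distance to their neighbours were not taken into account in these counts.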

How the data were processed

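The authors aligned paired-end reads of 2 PRDM6 ChIP and 2 Input libraries to mm10 with BWA, called peaks with MACS2 in each ChIP against its input (p limit 0.001) and matched them between replicates by IDR. Their versions are not given in the sources used here. The deposited list scales the IDR into a score, and peaks at a score of 540 or more were counted as having a global IDR no higher than 0.05. The deposited −log10 p-values are those of each replicate and their smaller value. The signal column was left unset, the deposited annotation's q-value column holds the −log10 p of the second-listed replicate, and the deposited distance to the TSS is in bp.

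From these values spacing, runs (gap limit 10 kb), distances and medians were computed with Python 3.11.15, NumPy 2.4.6, pandas 2.3.3 and SciPy 1.17.1, and plotted with matplotlib 3.10.9. Coordinates count from 1. Sequence came from GRCm38.p6 and genes from GENCODE M21, in which 99.0% of the 7291 transcripts named by the annotation have the same ends. Promoters came from RefSeq. Peak heights were read from the Poisson series P(X > k), matched within 0.0002. The reader of heights and the motif search were tested on simulated data.

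The 3 genes and the gene lists were chosen with earlier results of these data known, so everything is a description with no test. Peaks are not replicates of each other. Named peaks were, per gene, the 5 highest matched values, the nearest and farthest, those with a global IDR no higher than 0.05, and promoter and exon peaks. Others named (the second peak of the strongest Gm20125 run, the intronic peaks, the peak past the 3′ end of Marcks, and the Tbl1xr1 peaks with unequal replicates or both words) were chosen after their values were seen. Named genes were those with a TSS inside a span, the nearest protein-coding gene on each side, genes with 20 or more peaks and those named from the 2 lists. Other genes fixed for these lists are not reported here. Intervals cover counting error only.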

Additional observations from a re-analysis of the deposited data

How the results depend on the processing

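No paired analysis was possible because the shared replicate numbers link ChIP with input libraries, and the input libraries have no values of their own in the list. The −log10 p medians moved with the replicates used. Without 1 replicate they ran from 6.61 to 9.37 at Gm20125, 6.01 to 6.15 at Marcks and 6.92 to 9.10 at Tbl1xr1. With both replicates at 5 or more the Marcks median was 6.15. All of these lie above the matched medians of 6.39, 4.98 and 6.15, which take the smaller value of each peak and so are not bracketed by them. Limited to a global IDR of 0.05, the peaks fell to 2 at Gm20125, 0 at Marcks and 2 at Tbl1xr1. By the nearest TSS of any gene type they were 12, 1 and 2, and joining peaks within 1 kb left 19 at Gm20125. Median spacing from edge to edge was 5248 bp at Gm20125, 8494 bp at Marcks and 25784 bp at Tbl1xr1, and from summit to summit 26333.5 bp at Tbl1xr1. In the alternatives added after seeing the data, it ran from 6469.5 to 6864 bp at Gm20125, 8962 to 9558 bp at Marcks and 26330.5 to 26351 bp at Tbl1xr1 with the summits of 1 replicate, and was 36287.2, 27021.5 and 36367 bp among the peaks above the gene's median value, which are fewer. From the nearest GENCODE TSS of the gene, the median distance was 89016.5, 262787 and 248717 bp. Over the whole peak, an AP-1 word was in 25.8% at Gm20125, 28.6% at Marcks and 40% at Tbl1xr1, and a TEAD word in 25.8%, 21.4% and 36%. Whole peaks are longer than the summit windows, and over all peaks the shares rose to 34.3% and 19.2%. Within 50 bp of the summit a TEAD word was in 4% at Tbl1xr1 and 4.09% of all peaks. Of all 59 alternatives, including those above, 28 kept a count or density within 1.5 times, a share within its interval, or another value within 1 SD between replicates, which for the spacing at Tbl1xr1 is narrow. Depth could not be weighed, since the files give none.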
